A study of Mus musculus with 82 samples.

Results

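Cd79a, Cd79b, Ms4a1, Ebf1, Pax5, Cd22, Blk and Ly6d are genes of the B cell lineage whose mRNA was lower in hematopoietic stem cells (HSCs) of old mice than of young mice. These 8 genes, of 55376 in the gene count tables, were picked for that difference, so their values between ages are given as a description without a test. All 8 were lower in old HSCs (OHSCs), with a median log2 fold change of -3.34 against -0.01 over the 21522 genes compared. Of these, 7 fell 3.31-fold to 54.6-fold but were still detected, with 1 of their 56 values in OHSCs at 0. Cd79b was 1.54-fold lower and stayed at 30.4 to 38.6 CPM (read counts scaled to a common library total) in OHSCs. The 7 genes other than Cd79b were close to or at 0 in cultured and transplanted OHSCs and in myeloid progenitors, and none of the 32 accessible regions that could be tested at 6 of the genes, nor of the 8 H3K27ac peaks at 3 of them, was called between ages. Over all regions and peaks 13.0% and 2.3% were called.

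HSCs were sorted from bone marrow of male C57BL/6J mice, 3 to 4 months old for young HSCs (YHSCs) and 24 to 26 months old for OHSCs, as c-Kit-enriched cells without lineage antigens (B220, the B cell antigen, among them) or IL-7Rα, positive for Sca-1, c-Kit and CD150 and negative for CD34 and Flk2. RNA-seq was available for 4 YHSC and 8 OHSC libraries, ATAC-seq (6000 cells each) for 4 and 4, and H3K27ac ChIP-seq (10000 cells each) for 2 and 2, with H3K4me3 and H3K27me3 from 2 YHSC libraries each. OHSCs carrying a lentiviral control shRNA, or shRNA1 or shRNA2 aimed at the short form of Btaf1, were sequenced after 3.5 days of culture or after transplantation, when donor cells (CD45.2+ LSK CD48-CD150+) were re-sorted from lethally irradiated CD45.1 recipients that had also received CD45.1 myeloid progenitors. There were 2 libraries per shRNA and setting. Common myeloid (CMP), granulocyte-macrophage (GMP) and megakaryocyte-erythroid progenitors (MEP) of wild-type young mice had 2 RNA-seq libraries each. YHSC RNA came from pooled mice and OHSC RNA from individual mice, so pooling and age cannot be told apart.

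The libraries held 20475764 to 24122404 counts in YHSCs, 22175623 to 24654742 in OHSCs, 37292602 to 42737054 in shRNA samples and 33177394 to 36510850 in progenitors, and 15427933 to 26260337 counts in regions for ATAC-seq. The stem cell receptor Kit stood at 1573 to 1917 CPM in all 12 HSC libraries, Elane at 6793 to 7170 CPM in GMP, and Hbb-bt at 18.8 to 25.2 CPM in MEP against 0.603 to 0.953 CPM in CMP. Libraries of HSCs were made with another kit than those of shRNA samples, so levels of HSCs, shRNA samples and progenitors are set side by side without a test. Btaf1 counts over the whole gene, which do not separate the shorter variant, were 137 and 141 CPM in cultured control libraries against 110 to 119 CPM with either shRNA. In transplanted cells they were 161 and 165 CPM against 118 to 139 CPM.

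A B cell recognises antigen through a membrane immunoglobulin that signals through the paired chains CD79A and CD79B. Their phosphorylated tails recruit the kinase SYK, SRC family kinases such as BLK and LYN start the signal, and the sialic acid-binding lectin CD22 dampens it. EBF1 and PAX5 are the transcription factors that specify the lineage and commit cells to it, and both drive Cd79a. LY6D is a surface protein that marks B cell-biased lymphoid progenitors, and MS4A1 is CD20, the surface protein of B cells targeted by therapeutic antibodies. HSCs lie upstream of these steps, and low levels of lineage genes in them have been described as priming.

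In mm10 the genes lay on 6 chromosomes, with pairs on chromosomes 7 and 11: Pax5 at chr4:44524757-44710487 (minus strand), Cd79a at chr7:24897381-24902197 (plus), Cd22 at chr7:30865402-30880342 (minus), Ebf1 at chr11:44617317-45008091 (plus), Cd79b at chr11:106311341-106314762 (minus), Blk at chr14:63372836-63417037 (minus), Ly6d at chr15:74762056-74763620 (minus) and Ms4a1 at chr19:11249675-11266241 (minus). Exons of Pax5 and Cd22 overlap those of genes on the other strand (636 bases with 5730488B01Rik and 125 bases with Gm12462 for Pax5, and 479 bases with Gm29439 for Cd22). The methods do not state whether counting used strand, so reads in these stretches cannot be assigned to one gene.

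RefSeq promoter windows (GRCm38.p6, 250 bases before to 50 bases after a transcript start) matched 4 of the 8 genes: Cd79a, Cd22, Ebf1 and Pax5. Those of Cd79a and Cd22 are shown because the letters of motifs known for factors of early B cells occur in them. Capitals mark the letters of the motifs searched on both strands: the E-box CAGGTG, the EBF motifs CCCNNGGG and CCCNNGAG, the ETS core GGAAG and the octamer ATGCAAAT. The windows lie at chr7:24897247-24897546 (plus strand) and chr7:30878979-30879278 (minus strand), and both run 5′ to 3′ along the gene.
Cd79a: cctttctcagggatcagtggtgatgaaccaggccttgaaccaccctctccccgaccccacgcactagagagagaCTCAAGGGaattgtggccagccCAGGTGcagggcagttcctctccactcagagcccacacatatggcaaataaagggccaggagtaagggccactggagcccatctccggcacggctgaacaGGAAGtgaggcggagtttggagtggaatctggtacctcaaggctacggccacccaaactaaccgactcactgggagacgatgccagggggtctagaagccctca
Cd22: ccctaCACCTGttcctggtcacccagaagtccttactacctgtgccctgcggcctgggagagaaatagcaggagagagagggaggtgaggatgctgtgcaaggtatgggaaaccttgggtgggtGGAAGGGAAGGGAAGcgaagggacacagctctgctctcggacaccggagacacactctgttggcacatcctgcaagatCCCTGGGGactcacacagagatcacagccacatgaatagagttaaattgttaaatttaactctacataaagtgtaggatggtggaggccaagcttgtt
In the Cd79a window, the looser EBF motif was read on the reverse strand as CTCAAGGG, beginning at base 75 from the 5′ end, the E-box at base 97 and the ETS core at base 197. The Cd22 window held the E-box on the reverse strand at base 6, the EBF motif as CCCTGGGG at base 203 and the ETS core in 3 tandem copies beginning at base 125. Of the windows not shown, that of Pax5 and that of Ebf1 at chr11:44619978-44620277 held the ETS core only. The Ebf1 window at chr11:44617850-44618149 held none of the motifs. No PAX5 motif was searched. Of all 32851 promoter windows, 20.2% held the E-box, 13.7% the stricter and 24.6% the looser EBF motif, 71.4% the ETS core and 1.74% the octamer, so matches of this kind are common, and none shows binding. None of the 5 windows of member genes overlapped an ATAC-seq region. The nearest region lay 37 and 1323 bp from the Ebf1 windows, 593 bp from that of Cd22, 1901 bp from that of Pax5 and 4966 bp from that of Cd79a. The promoters described further on are wider and use transcript starts of another annotation, and open regions occur at some of them.

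The signalling chains of the receptor parted with age. Cd79a stood at 12.3, 14.8, 29.2 and 31.8 CPM in YHSC libraries 1 to 4, and at 0.310 to 1.35 CPM in the 8 OHSC libraries (median 0.822). Every OHSC library lay below every YHSC library, and YHSC libraries 3 and 4 lay above 1 and 2. The fitted log2 fold change was -4.71 (SE 0.316), a 26.1-fold lower level. Its partner Cd79b stood at 46.8, 51.1, 61.0 and 63.0 CPM in YHSCs and at 30.4 to 38.6 CPM in OHSCs (median 35.1). The groups did not overlap, but the log2 fold change was -0.62 (SE 0.0760), and the mean went from 55.5 to 35.0 CPM. In bulk libraries, fewer cells that carry an mRNA and less of it in each cell cannot be told apart.

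Ly6d, a surface protein like MS4A1 and CD22, had the steepest fall of the 8 genes. It stood at 6.15, 6.89, 16.6 and 19.9 CPM in YHSCs and at 0.0437 to 0.619 CPM in OHSCs (median 0.134), a log2 fold change of -5.77 (SE 0.498) or 54.6-fold. Ms4a1 stood at 8.83, 11.8, 24.9 and 23.5 CPM in YHSCs and at 0.122 to 1.25 CPM in OHSCs (median 0.715), a log2 fold change of -4.50 (SE 0.413). Cd22 stood at 3.72, 4.00, 7.73 and 8.62 CPM in YHSCs and at 0.328 to 1.04 CPM in OHSCs (median 0.696), a log2 fold change of -3.07 (SE 0.258). In each of these genes, YHSC libraries 3 and 4 stood above libraries 1 and 2, and no OHSC library reached the lowest YHSC library.

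The kinase Blk stood at 1.92, 1.61, 3.54 and 3.90 CPM in YHSCs and at 0.0811 to 0.423 CPM in OHSCs (median 0.198), a log2 fold change of -3.60 (SE 0.354). Ebf1 stood at 2.34, 3.76, 5.20 and 4.93 CPM in YHSCs and at 0.122 to 1.70 CPM in OHSCs (median 0.796), a log2 fold change of -2.22 (SE 0.40). Pax5 stood at 1.13, 1.56, 2.26 and 1.82 CPM in YHSCs and at 0 to 1.03 CPM in OHSCs (median 0.50), a log2 fold change of -1.73 (SE 0.473). The factors fell less than Cd79a on this scale, and Pax5 came closest to overlapping, with its highest OHSC library just below its lowest YHSC library. Pax5 rested on 152 counts over the 4 YHSC libraries and 91 over the 8 OHSC libraries, the fewest of the 8 genes in YHSCs.

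Among the 21522 genes ordered from the most lowered, Ly6d was 3rd, Cd79a 9th, Ms4a1 13th, Blk 24th, Cd22 37th, Ebf1 68th, Pax5 137th and Cd79b 1148th. Cd79b was thus the member just inside the choice, at 1.54-fold. Of all tested genes, 2.83% met the call for lower genes (fold change above 1.5 and adjusted p below 0.05 in edgeR). That call was not applied to the 8 genes. All 8 had every OHSC library below every YHSC library, which held for 8.02% of genes. Since the genes were picked on this contrast, nothing is read from those shares. Per kilobase of exon, mean YHSC levels ran from Cd79b (38.8 CPM per kb) over Ly6d (16.6), Cd79a (15.1), Ms4a1 (2.79), Cd22 (1.19), Blk (1.02) and Ebf1 (0.416) to Pax5 (0.191). On that scale Ly6d and Cd79a differed by less than the spread between YHSC libraries, as did Cd22 and Blk.

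**Figure D1:**
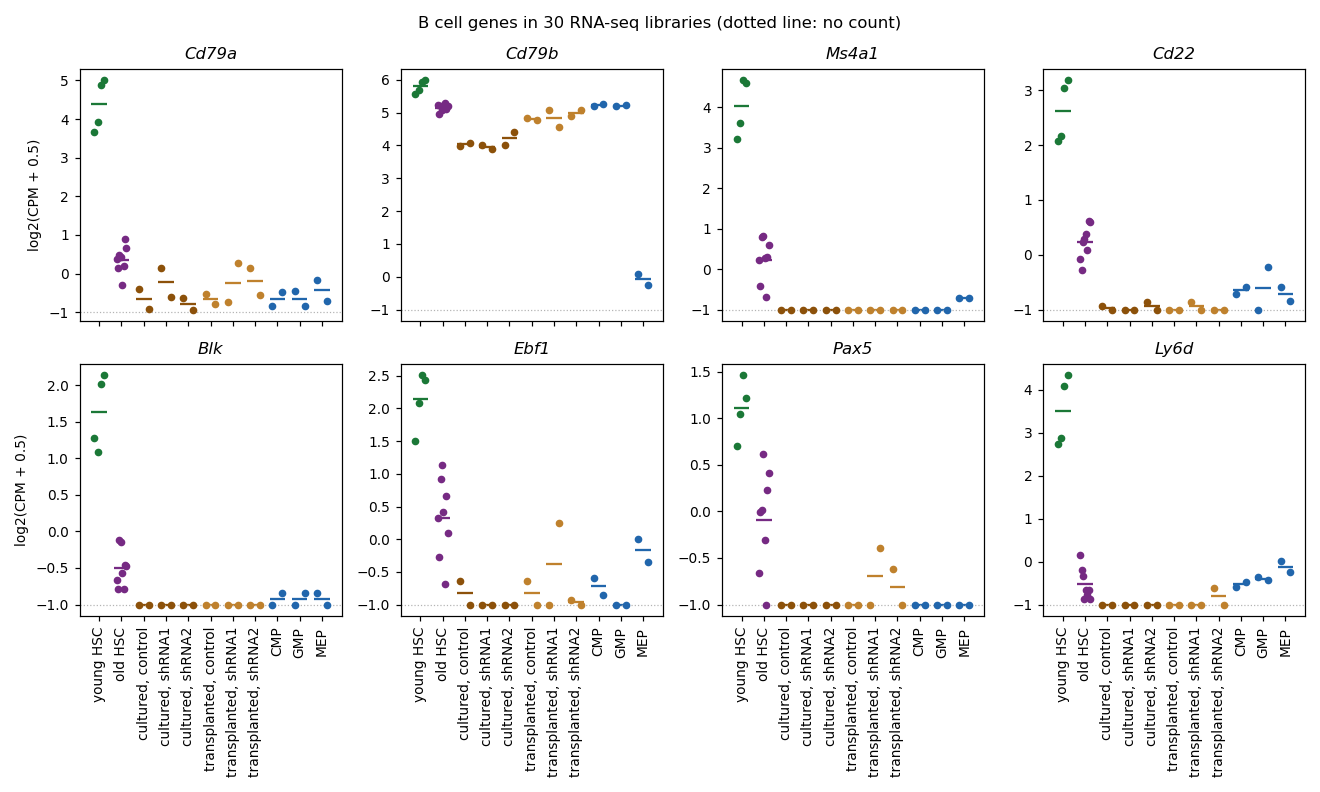
Each panel plots 1 of the 8 genes, with a point for each of the 30 RNA-seq libraries as log2(CPM + 0.5) and the groups along the horizontal axis, and a dotted line at the value of a library with no count. In 7 panels the 4 young HSC libraries stand above all others, while Cd79b is high in every group except MEP.

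The YHSC libraries were not alike in these genes. Libraries 3 and 4 together exceeded libraries 1 and 2 by 1.38-fold to 2.67-fold in the 7 genes other than Cd79b, on the scale of CPM + 0.5, and by 1.26-fold in Cd79b. Over all 21522 genes the same ratio had a median of 0.988, and the middle 95% of genes lay between -0.54 and 0.38 on the log2 scale. The summed level of the 7 genes was 36.4, 44.4, 89.5 and 94.4 CPM in YHSC libraries 1 to 4, against 1.62 to 5.99 CPM in OHSCs. Without libraries 3 and 4, a comparison added after seeing the data, the median log2 fold change of the 8 genes was -2.68, and without libraries 1 and 2 it was -3.78. Cd79b then stood at a log2 fold change of -0.42 without libraries 3 and 4, a difference under 1.5-fold, and at -0.79 without libraries 1 and 2.

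All 8 genes were higher in YHSC libraries 3 and 4, but their ratios to each other varied to different degrees. Relative to Cd79a in the same library, Ms4a1 stood at 0.718 to 0.852, Cd22 at 0.265 to 0.303, Ly6d at 0.465 to 0.625, Blk at 0.109 to 0.156, Ebf1 at 0.155 to 0.254 and Pax5 at 0.0574 to 0.106. Cd79b stood at 1.98 to 3.80 times the Cd79a level. The ratio thus varied 1.14-fold for Cd22 and 1.19-fold for Ms4a1, but 1.84-fold for Pax5 and 1.92-fold for Cd79b. When the mean OHSC level of Cd79b was taken off each YHSC library, a calculation chosen after the values were seen, 11.8, 16.1, 26.04 and 28.0 CPM remained. These were 0.958, 1.09, 0.891 and 0.882 times the Cd79a level of the same library, which was taken without such a subtraction. The genes were picked on this age difference, so nothing is read from these ratios. Across the 12 HSC libraries, the log2 level of each gene followed the mean of the other 7 with Pearson r from 0.852 for Pax5 to 0.994 for Ms4a1, a description that holds the age difference within it. Among the 8 OHSC libraries alone, r was 0.908 for Ms4a1, 0.858 for Blk and 0.833 for Ebf1, but -0.307 for Ly6d and -0.158 for Cd79b.

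**Figure D2:**
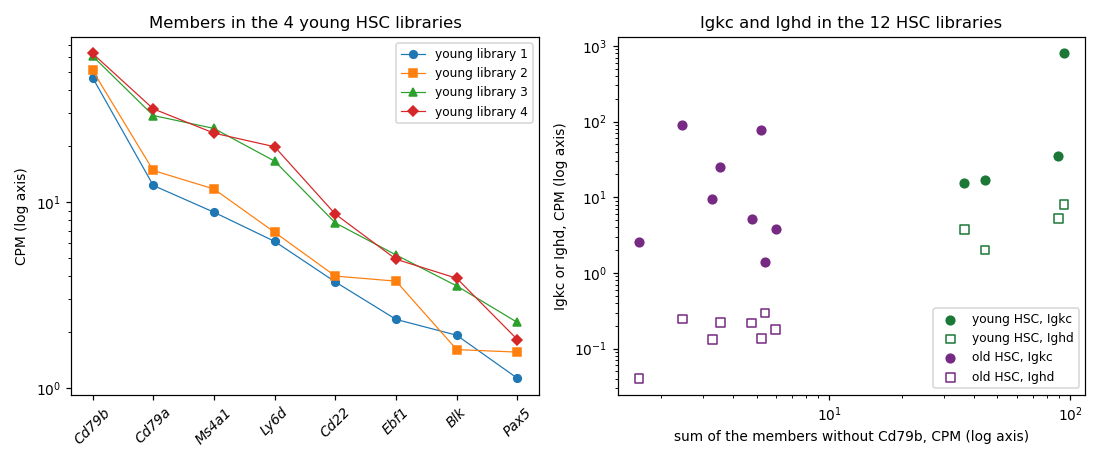
The left panel joins the CPM of the 8 genes (log axis) in each of the 4 young HSC libraries, with the lines of libraries 3 and 4 above those of 1 and 2 at every gene. The right panel plots Igkc (filled circles) and Ighd (open squares) in CPM against the summed CPM of the 7 genes other than Cd79b in the 12 HSC libraries, both on log axes, and Ighd is at 2.00 to 7.96 CPM in young and 0.0406 to 0.296 CPM in old libraries while Igkc scatters from 1.40 to 794 CPM over both.

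Other genes of B cells were taken from 5 lists that hold no member. Of 65 listed genes 61 could be tested, and 24 of them (39.3%) fell, while 37 were not called, against the 2.83% of all genes given above. None rose (edgeR, fold change above 1.5 and adjusted p below 0.05). At an unadjusted p below 0.05, 40 were lower and 5 higher (Bach2, Cd72, Dapp1, Foxo1 and Plcg2), and DESeq2 called 25 lower and 0 higher. Their median log2 fold change was -0.65 against -0.01 over all genes. The lists were drawn up with earlier results of these data known, so the count is a description of them.

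Of 21 genes of the B cell receptor pathway, 9 fell. The adaptor Bank1 went from 18.6 to 2.00 CPM (log2 fold change -3.17, adjusted p = 8.53e-10). The inhibitory receptor Fcgr2b (-1.62), the linker Blnk (-1.53) and Rasgrp3 (-1.25) also fell. The other called genes were Prkcb, Syk, Pik3cd and Pik3ap1, which fell by 0.85, 0.70, 0.68 and 0.65 on the log2 scale.

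Among 12 transcription factors of the lineage, 5 fell: Spib from 6.27 to 0.195 CPM (log2 fold change -4.93), the coactivator Pou2af1 from 5.79 to 0.470 CPM (-3.58), Ikzf3 from 4.09 to 0.601 CPM (-2.72), Irf4 from 1.44 to 0.337 CPM (-2.05) and Pou2f2 from 18.7 to 10.0 CPM (-0.85). Of 19 genes of mature B cells, 11 fell. Fcmr, the Fc receptor for IgM, went from 6.99 to 0.189 CPM (-5.13), Ighd from 4.72 to 0.184 CPM (-4.62), Iglc2 from 10.2 to 0.414 CPM (-4.60), Fcrla from 2.00 to 0.120 CPM (-3.98) and the inhibitory lectin Siglecg from 11.8 to 1.16 CPM (-3.32). The chemokine receptor Cxcr5 (-2.02), Fcrl1 (-1.49), the BAFF receptor Tnfrsf13c (-1.48), Cd37 (-1.02) and H2-Ob (-0.73) fell less. The lists share genes, so their counts do not add up to 24.

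None of the 6 testable genes of pro-B and pre-B cells and none of the 5 of plasma cells was called by edgeR or DESeq2 (1 and 2 of them were lower at an unadjusted p below 0.05). Vpreb1, of the surrogate light chain of pre-B cells, stood at 3.96 to 4.88 CPM in YHSCs and 3.24 to 4.51 CPM in OHSCs, and the recombinase gene Rag1 at 0.598 to 1.05 CPM and 0.175 to 0.983 CPM. The summed level of the 8 pro-B and pre-B genes was 7.36 to 8.84 CPM in YHSCs and 4.79 to 8.49 CPM in OHSCs. The groups overlapped in all 3 of these.

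Igkc, Jchain and Ighm did not keep step with the members in every library, whereas Ighd and Iglc2, given above, fell with age. Igkc, the kappa constant region, stood at 15.4, 16.8, 34.9 and 794 CPM in YHSCs and at 1.40 to 90.5 CPM in OHSCs. Relative to Cd79a it stood at 1.14 to 1.26 in YHSC libraries 1 to 3, at 25.003 in library 4, and at 1.57 to 147 in OHSCs. Jchain, which joins IgM and IgA of plasma cells into polymers, stood at 0.418 to 0.783 CPM in YHSC libraries 1 to 3 and at 245 CPM in library 4. In OHSCs it ran from 0.481 to 31.0 CPM, and was highest in libraries 2, 7 and 1, the same 3 in which Igkc was highest. Ighm, the heavy chain of IgM, stood at 37.7 to 99.1 CPM in YHSCs and at 1.35 to 11.3 CPM in 7 OHSC libraries, with 162 CPM in OHSC library 7. The 7 members summed to 94.4 CPM in YHSC library 4 and 89.5 CPM in library 3, so the Igkc and Jchain level of library 4 had no counterpart in them. What part such cells or transcripts had in the member levels was not tested.

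Markers of other cells that a bone marrow sort could hold were also read. Siglech of plasmacytoid dendritic cells stood at 0.290 to 1.07 CPM in YHSCs and 0.0811 to 0.992 CPM in OHSCs, Cd3e of T cells at 0 to 0.460 and 0.0406 to 0.402 CPM, and Ncr1 of NK cells at 0 to 0.244 and 0 to 0.246 CPM. The whole list of 10 plasmacytoid dendritic genes summed to 251 to 263 CPM in YHSCs and 259 to 283 CPM in OHSCs, and the 13 T cell genes to 30.01 to 36.6 and 26.3 to 36.9 CPM. The mature B cell list summed to 393 to 1302 CPM in YHSCs and 202 to 470 CPM in OHSCs, and the plasma cell list to 178 to 503 and 170 to 287 CPM. Between ages the NK cell and megakaryocyte sums did not overlap, while the granulocyte and erythroid sums did. The 6 NK cell genes summed to 23.7 to 26.7 CPM in YHSCs and 65.0 to 91.3 CPM in OHSCs, mostly from Klrb1c, which rose from 16.1 to 68.5 CPM. The 6 megakaryocyte genes summed to 491 to 511 and 857 to 1188 CPM. The 11 granulocyte and monocyte genes summed to 566 to 787 and 696 to 844 CPM and the 8 erythroid genes to 164 to 225 and 49.2 to 221 CPM. What part these cells or transcripts had in the member levels was not tested. No gene of the 13 lists was at 0 in every HSC library.

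**Figure D3:**
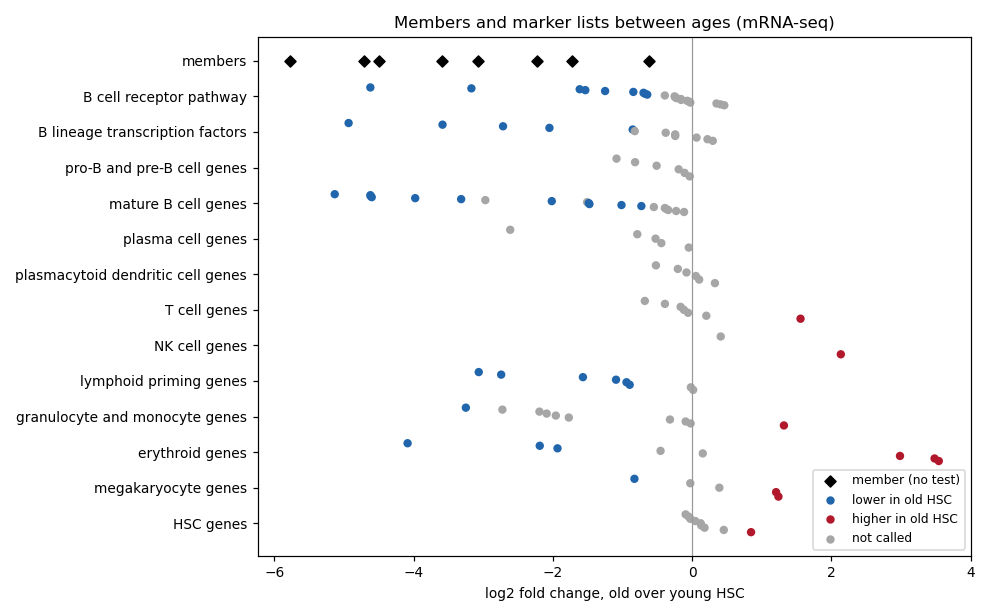
Each point is 1 gene, with its log2 fold change between old and young HSCs along the horizontal axis and its list along the vertical axis, coloured by whether edgeR called it lower, higher or neither, with the 8 members as black diamonds without a test. Called genes of the B cell lists lie on the lower side only, 9 in the receptor pathway, 5 among transcription factors and 11 among mature B cell genes.

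Genes whose pattern was most like the mean of the 8 members over the 12 HSC libraries were sought among 16647 genes with at least 1 CPM on average in YHSCs. The 10 with the highest Pearson r of log2(CPM + 0.5) were Cyp4f18 (0.992), 2010309G21Rik (0.988), Fcmr (0.983), Arid3a (0.983), Iglc3 (0.982), Ikzf3 (0.981), Supt20 (0.981), Map4k2 (0.979), Spib (0.979) and Dusp22 (0.978), where the median gene had 0.171. In all, 387 genes passed 0.9, and the points share libraries, depth and the age split. Over all 30 RNA libraries 5 of the 10 stayed above 0.95, namely Iglc3 (0.960), 2010309G21Rik (0.957), Ikzf3 (0.954), Fcmr (0.952) and Spib (0.952). The other 5 dropped to 0.340 for Supt20, 0.506 for Arid3a, 0.542 for Cyp4f18, 0.584 for Map4k2 and 0.683 for Dusp22. Cyp4f18, for one, went from 6.22 CPM in YHSCs to 0.446 CPM in OHSCs but stood at 13.0 CPM in GMP.

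In cultured OHSCs the 7 genes other than Cd79b were nearly absent. They summed to 0.0244 to 0.612 CPM over the 6 libraries, and 33 of their 42 values were 0. In the 6 transplanted libraries they summed to 0.0798 to 1.66 CPM, and 29 of 42 values were 0. Ms4a1 and Blk had no count in any of these 12 libraries. The highest sum came from the second transplanted shRNA1 library, with Cd79a at 0.711 CPM, Ebf1 at 0.685 CPM and Pax5 at 0.263 CPM. The first transplanted shRNA2 library had Cd79a at 0.605 CPM and Pax5 and Ly6d at 0.151 CPM each. Cd79b was present throughout, at 14.5 to 20.7 CPM in culture and 23.2 to 33.3 CPM after transplantation. Freshly sorted OHSCs, from another kit, had 1.62 to 5.99 CPM for the sum and 30.4 to 38.6 CPM for Cd79b.

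Knockdown of the shorter Btaf1 variant was compared with the control shRNA over 4 and 2 libraries. Of the 8 genes, Cd79a and Cd79b had enough counts to be tested in each setting, and neither reached the study's call for knockdown (over 1.5-fold with p below 0.05 before adjustment), by edgeR or by DESeq2. Over all genes 3.42% were called in culture and 2.24% after transplantation. In culture Cd79a differed by a log2 fold change of 0.67 (95% interval -1.39 to 2.72, edgeR adjusted p = 0.837) and Cd79b by 0.05 (-0.21 to 0.31, adjusted p = 0.920). After transplantation the differences were 1.52 for Cd79a (-0.37 to 3.41, adjusted p = 0.928) and 0.12 for Cd79b (-0.17 to 0.41, adjusted p = 0.961). The intervals of Cd79a are wide, and changes within them cannot be told from none in these libraries. Those of Cd79b exclude a change of 1.5-fold in either direction.

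Of the other B cell genes, 42 were tested in culture and 53 after transplantation. In culture Bach2 fell from 19.2 to 13.0 CPM (adjusted p = 0.00981), while Id3, an inhibitor of E proteins, rose from 54.5 to 161 CPM (adjusted p = 5.41e-09) and H2-Ob from 13.8 to 23.8 CPM (adjusted p = 0.000231). Fcgr2b met the study's unadjusted threshold only (1.72 and 2.80 CPM, adjusted p = 0.283), and so did Siglecg after transplantation (2.43 and 5.08 CPM, adjusted p = 0.879). Ighd was too low to be tested in either setting and Igkc in culture, and after transplantation Igkc was not called.

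In myeloid progenitors of young mice, Cd79b split by lineage. It stood at 35.9 to 38.0 CPM in the CMP and GMP libraries and at 0.340 to 0.563 CPM in MEP. The level was 74.9-fold lower in MEP than in CMP (log2 fold change -6.23, SE 0.181, edgeR adjusted p = 3.70e-12) and 86.3-fold lower than in GMP (-6.43, SE 0.181, adjusted p = 2.13e-12), with no overlap. Between GMP and CMP the log2 difference was 0.20 (SE 0.111, adjusted p = 0.182). The other 7 genes did not exceed 0.507 CPM in any progenitor library and summed to 0.493 to 1.75 CPM, and 16 of their 42 values were 0. Pax5 was at 0 in all 6.

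Ebf1 and Ly6d were the other genes with enough counts for the test. Ebf1 had no count in GMP and 0.395 CPM in MEP, at least 9.04-fold higher than the floor of 3 counts over both GMP libraries (adjusted p = 0.00418). Since Ebf1 passed the filter on low counts through its MEP libraries, where it is high, this call was shaped by the filter and supports nothing. Its differences between MEP and CMP (log2 1.91, adjusted p = 0.0887) and between GMP and CMP (adjusted p = 0.0890) were not called. Ly6d differed by 0.64 between GMP and CMP, 1.22 between MEP and CMP and 0.58 between MEP and GMP, with adjusted p of 0.563, 0.152 and 0.493. Of all genes tested, 16.7% were called between GMP and CMP, 46.7% between MEP and CMP and 43.7% between MEP and GMP, against 0, 1 and 2 of the 3 testable members, one of these the Ebf1 call.

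Ighm followed Cd79b in the progenitors, with 188 to 265 CPM in CMP and GMP and 2.21 to 2.79 CPM in MEP. Among the 47 other B cell genes tested, 31 were lower and 7 higher in MEP than in CMP, and 13 lower and 8 higher in GMP than in CMP. Those lower in MEP included Syk (216 to 19.9 CPM), Plcg2 (245 to 5.51 CPM), Tnfrsf13b (79.0 to 0.395 CPM) and Fcgr2b (48.8 to 0.113 CPM). Dntt, the polymerase that adds bases to V(D)J joints, fell from 22.7 CPM in CMP to 0.740 CPM in GMP (adjusted p = 4.03e-08). Syk and Plcg2 of the receptor pathway thus stood above 200 CPM in CMP, in libraries where Cd79a, Ms4a1 and Blk were not above 0.507 CPM.

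ATAC-seq measures open chromatin as reads of transposase insertions, here in other cell samples than RNA-seq. Among the consensus regions, 44 lay in the gene bodies or the 10 kb before the starts of 7 members: 23 at Ebf1, 11 at Pax5, 4 at Blk, 2 each at Cd79b and Cd22, and 1 each at Cd79a and Ms4a1. Ly6d had none. Of the 32 that passed the filter on low values, none was called between ages by edgeR (fold change above 1.5 and adjusted p below 0.01), and none by DESeq2, while 13.0% of the 89245 regions tested were called. At an unadjusted p below 0.05, 6 of them differed, 5 lower and 1 higher in OHSCs. Log2 fold changes ran from -0.45 to 0.57, with a median of -0.17 against -0.01 over all regions tested. Whether called or not, 23 of the 32 regions were lower and 9 higher in OHSCs, and 18 of the 32 lay at Ebf1.

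Promoter regions were open at both ages in 4 of the 8 genes. The Cd79b promoter (chr11:106313536-106314823, over the gene's start) stood at 4.91, 4.796, 5.18 and 4.76 CPM in YHSCs and 3.19, 3.97, 4.17 and 4.81 CPM in OHSCs. The groups overlapped, and the log2 fold change was -0.29 (SE 0.151, adjusted p = 0.134), with a 95% interval of 0.666 to 1.00 for the fold. Pax5 (chr4:44704133-44704880, at the start of a shorter transcript) stood at 13.0 ± 1.10 CPM (SD, n = 4) in YHSCs and 14.7 ± 0.966 CPM in OHSCs (log2 fold change 0.16, adjusted p = 0.187). Ebf1 had a region over its first start (chr11:44616873-44617394, shared with the promoter of Gm37695) with 14.7 and 16.5 CPM (0.15, adjusted p = 0.176), and another at a later start (chr11:44618186-44618655) with 6.46 and 5.54 CPM (-0.24, adjusted p = 0.155).

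At Cd22, the region over the start of the gene (chr7:30879871-30880451) stood at 1.74, 3.24, 1.92 and 3.08 CPM in YHSCs and 2.35, 1.74, 1.39 and 2.15 CPM in OHSCs. Its log2 fold change was -0.39 (SE 0.227, adjusted p = 0.187), a fold between 0.561 and 1.04 at 95%. A region at the start of a shorter Cd22 transcript (chr7:30872997-30873718) had 4.87 and 4.35 CPM (-0.20, adjusted p = 0.346). Cd79a, whose mRNA fell 26.1-fold, had no region at its promoter, and 1 upstream (chr7:24890285-24891121) with 12.6 ± 1.15 CPM (SD, n = 4) in YHSCs and 11.1 ± 0.653 CPM in OHSCs (-0.19, adjusted p = 0.132, 95% interval of the fold 0.766 to 1.00). Against a 1.5-fold lower level, the interval for Cd79a lies inside, that for Cd79b just reaches it and that for Cd22 passes it.

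Nearest to the threshold among tested regions lower in OHSCs were a pair in the Ebf1 gene body, chr11:44665076-44665912 (10.5 and 8.504 CPM, log2 fold change -0.31, adjusted p = 0.0185) and chr11:44696460-44697215 (4.41 and 3.26 CPM, -0.45, adjusted p = 0.0275). At members with H3K27me3 and no H3K4me3 in YHSCs, described further on, an intronic region each of Ms4a1 and Blk is shown. That of Ms4a1 was the only region at its gene, and that of Blk had the lowest log2 fold change among tested regions at its gene. The Ms4a1 region (chr19:11263607-11263849) stood at 1.31, 1.69, 1.19 and 1.33 CPM in YHSCs and 0.649, 1.04, 0.437 and 0.625 CPM in OHSCs. The groups did not overlap, but the region was under the filter on low values, and was called only when that filter was dropped (log2 fold change -1.02, adjusted p = 0.00844). A Blk region (chr14:63381899-63382182) stood at 2.85, 3.76, 3.49 and 3.24 CPM in YHSCs and 2.20, 2.31, 2.82 and 2.42 CPM in OHSCs (-0.45, adjusted p = 0.0501). Both are printed along the gene (minus strand, GRCm38.p6), with the ETS core GGAAG in capitals.
Ms4a1 region: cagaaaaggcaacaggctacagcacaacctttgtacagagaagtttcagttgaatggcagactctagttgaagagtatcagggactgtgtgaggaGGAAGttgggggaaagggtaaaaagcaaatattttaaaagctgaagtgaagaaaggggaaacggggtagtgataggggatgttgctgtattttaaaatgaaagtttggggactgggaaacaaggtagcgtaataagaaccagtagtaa
Blk region: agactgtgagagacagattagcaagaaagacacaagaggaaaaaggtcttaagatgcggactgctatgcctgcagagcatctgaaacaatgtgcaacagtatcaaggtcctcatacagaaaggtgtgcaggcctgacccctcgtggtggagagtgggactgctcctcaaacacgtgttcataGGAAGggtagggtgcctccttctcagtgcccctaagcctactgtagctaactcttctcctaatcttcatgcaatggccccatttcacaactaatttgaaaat
The ETS core begins at base 96 and at base 183, and it occurs in 67.7% and 75.6% of regions of about these lengths. No exon base lies in either.

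Of the 32 tested regions, the largest difference towards higher accessibility was in the Ebf1 gene body (chr11:44715732-44716423), with 2.35 ± 0.345 CPM (SD, n = 4) in YHSCs and 3.51 ± 0.587 CPM in OHSCs (log2 fold change 0.57, adjusted p = 0.0140). It went against the direction of Ebf1 mRNA, and was called without OHSC library 7 (0.64, adjusted p = 0.00805). Accessibility was also read at the promoters of the 24 other B cell genes that fell. Of 30 tested promoter regions 2 were called, both lower: Pou2f2 (chr7:25121225-25121666, log2 fold change -1.17, adjusted p = 8.80e-06) and Cd37 (chr7:45238623-45239515, -0.74, adjusted p = 8.17e-05). The median was -0.18.

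H3K27ac marks active promoters and enhancers. Of 39557 peaks, 8 lay at 3 of the members: 1 at the Cd79b promoter, 4 in the Ebf1 gene body and 3 in the Pax5 gene body. The Cd79b promoter peak (chr11:106313758-106314961) had a signal of 3.40 and 2.47 in YHSCs and 3.17 and 3.21 in OHSCs, a ratio of 1.09 (limma adjusted p = 0.810). The 8 ratios of OHSC to YHSC ran from 0.814 to 1.09, with adjusted p of 0.536 to 0.990. None was called by limma at an adjusted p below 0.05, none had an unadjusted p below 0.05, and none met the study's ratio rule (ratio of means above 1.5 and at least 1.2 for each pair of libraries). Over all peaks 2.3% were called by limma and 11.4% met the ratio rule, and the median ratio was 1.04. At the other 24 B cell genes that fell, 15 promoter peaks at 11 genes had ratios of 0.693 to 1.32, and none met the ratio rule. With 2 libraries an age, the precision of each ratio is low.

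**Figure D4:**
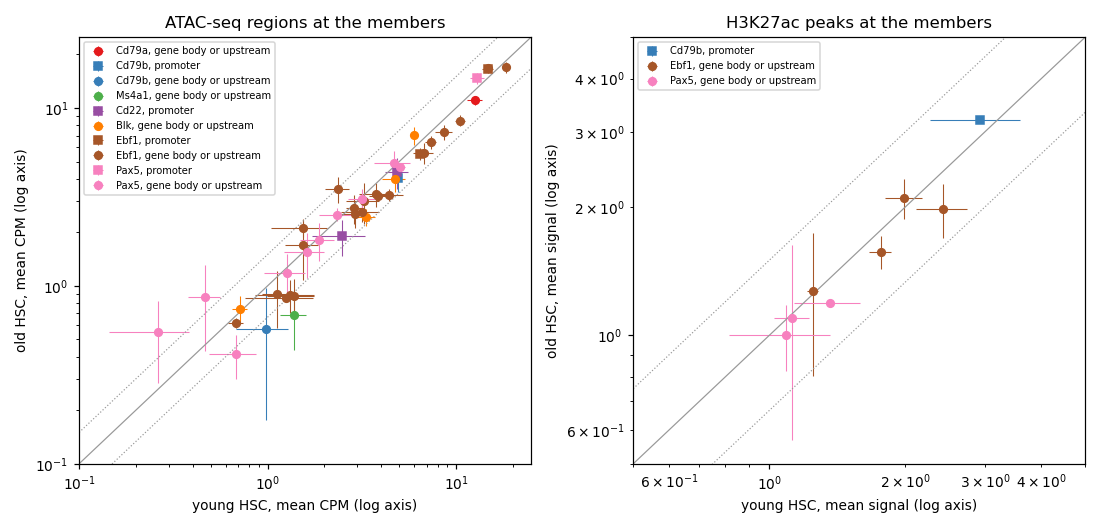
The left panel plots the mean CPM of the 44 ATAC-seq regions at the members, and the right panel the mean signal of their 8 H3K27ac peaks, in old against young HSCs on log axes, with squares for promoters, circles for other places, bars for the SD between libraries and dotted lines at 1.5-fold. Most points lie along the line of equal values, with H3K27ac ratios of 0.814 to 1.09.

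H3K4me3 of active starts and H3K27me3 of Polycomb-repressed genes were read in YHSCs, as levels. Cd79b had an H3K4me3 promoter peak (10.1 and 11.4, where the median of all peaks was 5.37) and no H3K27me3. Ebf1 carried both marks at its promoters, with H3K4me3 at 12.5 and 15.0 and H3K27me3 at 0.872 and 0.911 (median of all peaks 0.389), and so did Pax5, with H3K4me3 at 5.95 and 5.42 under a broad H3K27me3 domain at 1.26 and 1.30. Ms4a1, Cd22, Blk and Ly6d had H3K27me3 over their promoters and no H3K4me3 or H3K27ac peak. The H3K27me3 levels were 0.690 and 0.668 at Ly6d, in a peak that carries a low-mappability flag, and 0.504 and 0.536 at Cd22. At Ms4a1 they were below the median of all peaks, with 0.382 and 0.313 in one promoter peak and 0.365 and 0.193 in the other. The peak over the start of Blk had 0.453 and 0.401, and a broad domain at the start of a shorter transcript, which the authors do not annotate to Blk, had 1.77 and 1.81. Cd79a had no peak of any of the 3 marks.

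Promoter marks were set beside those of all coding genes with a like YHSC mRNA level. Of the 5412 genes at 5 to 50 CPM, 96.0% had an ATAC-seq region, 91.4% an H3K27ac peak, 94.8% an H3K4me3 peak and 24.1% an H3K27me3 peak at the promoter. The 4 members at that level, Cd79a, Ms4a1, Cd22 and Ly6d, had 1, 0, 0 and 3 of 4. Of the 3644 genes at 0.5 to 5 CPM, the shares were 73.5%, 50.0%, 65.1% and 67.9%, and the 3 members at that level, Ebf1, Pax5 and Blk, had 2, 0, 2 and 3 of 3. Among the 7147 genes below 0.5 CPM the shares were 27.1%, 11.3%, 20.3% and 53.3%. Cd79b, at 55.5 CPM, carried the ATAC-seq, H3K27ac and H3K4me3 marks that 98.1%, 96.6% and 98.0% of the 5571 genes at 50 CPM or more carried. The other 24 B cell genes that fell had 18, 11, 15 and 13 of 24 over all levels. Of these, the 13 genes at 5 to 50 CPM had 9, 6, 8 and 9. The 7 genes at 0.5 to 5 CPM had 5, 1, 3 and 4, and the 4 genes at 50 CPM or more had 4, 4, 4 and 0. ATAC-seq, ChIP-seq and RNA-seq were separate samples, and whether a few cells of another type were in one and not in another was not tested.

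**Figure D5:**
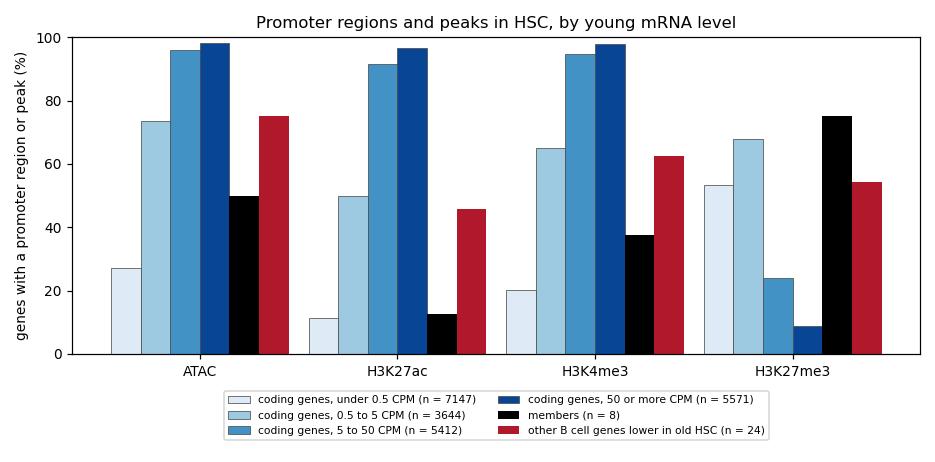
Bars give the percentage of genes with an ATAC-seq region, H3K27ac, H3K4me3 or H3K27me3 peak at the promoter, for coding genes in 4 classes of young HSC mRNA level, the 8 members and the 24 other B cell genes that were lower in old HSCs. The members have H3K27me3 at 6 of 8 promoters and H3K27ac at 1 of 8.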

How the data were processed

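RNA-seq was read in 30 libraries, ATAC-seq in 8 and ChIP-seq of H3K27ac in 4, and H3K4me3 and H3K27me3 in 2 young libraries a mark. For RNA, raw counts per gene were deposited, which the authors obtained with featureCounts (GENCODE M22) from reads that STAR had placed on mm10 after trimming with cutadapt. ATAC-seq reads were aligned with BWA and freed of duplicates, multi-mapped and blacklisted reads, and raw counts per consensus region were deposited. For ChIP-seq a signal per peak was deposited, after the authors had brought all libraries to the same read number and averaged the signal in bins of 1 kb. How the value of a peak was taken from these bins is not given in the methods. Columns of the authors' fold changes and 8 columns of per-sample values that no listed sample matches were not used. Some called genes of the lists are not reported here. Spike-in RNAs (6.05% to 6.93% of counts in HSC libraries) were left out.

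Counts were scaled with TMM, filtered with filterByExpr (ATAC-seq: more than 1.5 CPM in at least 4 libraries) and tested in edgeR by the quasi-likelihood method with robust dispersions, adjusting p over all genes or regions (Benjamini-Hochberg). Genes between ages and between progenitors were called when they differed over 1.5-fold with adjusted p below 0.05. Knockdown libraries of shRNA1 and shRNA2 were pooled as 1 arm, and calls there used the unadjusted p, as in the study. H3K27ac was compared with limma on log2(signal + 0.5). Intervals are 95% intervals of the fit and are, like the floor of 3 counts, silent on error beyond these libraries; the floor covers counting error only. Promoters ran from 1000 bp before to 100 bp after a transcript start of GENCODE M21. Fits were made in R 4.3.3 with edgeR 4.0.16, limma 3.58.1 and, as an alternative, DESeq2 1.42.0. Tables and plots were made in Python 3.11.15 with pandas 2.3.3, numpy 2.4.6 and matplotlib 3.10.9.

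The 8 members and all gene lists were chosen with earlier results of these data known. Named were the members, the genes called in each list, 12 defining genes of cell types, the 10 genes most like the members, the regions and peaks at member promoters and those called; the Ms4a1, Blk and intronic Ebf1 regions, the transplanted libraries with the highest sums and the progenitor examples were chosen after their values were seen. Old RNA-seq replicates were individual mice, and each transplanted RNA-seq library pooled cells of several recipients. Where separate cultures or animals are not stated, p-values measure only the spread between these samples. Replicate numbers did not pair the samples (correlations of same-numbered libraries -0.225 to 0.058). On simulated counts with 200 changed features, the test recovered 70% of 2-fold and 95% of 8-fold changes between ages (21522 genes, 7 false calls), 74% and 94% in culture (19763 genes, 318 false calls at the unadjusted p), 78% and 97% after transplantation (20350 genes, 515 false calls), 64% and 90% between MEP and CMP (17696 genes, 9 false calls) and 83% and 98% for ATAC-seq (89245 regions, 5 false calls).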

Additional observations from a re-analysis of the deposited data

Results flagged for a closer look

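Of 98 sets of 4 to 10 libraries examined, 8 had 1 library whose gap to the next exceeded Dixon's 95% limit, where chance gives about 1 in 20. Among young HSC libraries these were Igkc in library 4 (794 CPM, the next library 34.9 CPM), Jchain in library 4 (245 CPM, next 0.783 CPM), Irf4 in library 4 (2.57 CPM, next 1.13 CPM) and Elane in library 3 (1.80 CPM, next 0.342 CPM). Among old HSC libraries they were Ighm in library 7 (162 CPM, next 11.3 CPM), Iglc2 in library 7 (1.76 CPM, next 0.531 CPM), Siglecg in library 4 (2.77 CPM, next 1.44 CPM) and Fcrla in library 1 (0.354 CPM, next 0.133 CPM). None of the 8 members was among them.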

How the results depend on the processing

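The median log2 fold change of the 8 genes with age, -3.34, ran from -3.78 to -3.11 under the other tool, scaling, filter, replicate block and left-out libraries, and was -2.68 without young libraries 3 and 4, a setting added after seeing the data. The count of other B cell genes lower in old HSCs, 24, ran from 18 (fold change above 2) to 29 (without young libraries 1 and 2), and 0 rose in each setting. With the replicate block, which adds the shared number as a term although the numbers do not pair the samples, the median was -3.42 and 23 of these genes were called, 22 of them among the 24; over all H3K27ac peaks it called 2291 in place of 911. No paired analysis was possible for ATAC-seq because young libraries 1 to 4 and old libraries 5 to 8 share no numbers. The replicate block changed no call of a member. Of the ATAC-seq regions at the members, 1 was called without the filter (in Ms4a1) and 1 without old library 7 (in Ebf1), so leaving out a library gave 0 to 1. In culture 1 member was called without the filter, Ebf1 with a log2 fold change of -4.60 (edgeR adjusted p = 0.319), from 6 counts in 1 control library, and Cd79b was at -0.11 with shRNA1 alone against 0.05 with both. Calls after transplantation (0), between progenitors (3) and at H3K27ac peaks (0) stayed at these numbers in the settings tried, except that 1 H3K27ac peak met the ratio rule without old replicate 1. Over all features, H3K27ac calls (911) were 342 with a pseudocount of 0.1, 528 with median scaling, 541 at a signal of at least 1 and 310 to 3585 with a library left out. Knockdown calls without the filter were 1066 against 676 in culture and 728 against 455 after transplantation, and 758 with shRNA2 alone. The cause of these differences was not tested. H3K27ac had 2 libraries an age, which limits its precision, and counts of 0 in shRNA and progenitor libraries limit what can be seen of 5 to 6 of the 8 genes.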

Other observations

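Genes of lymphoid priming fell in old HSCs beside the B cell genes. Of 8 tested, 6 were lower (edgeR, adjusted p below 0.05 and fold change above 1.5): Ccr7 from 2.26 to 0.260 CPM, Cd52 from 7.39 to 1.07 CPM, Satb1, a chromatin organiser of lymphoid progenitors, from 15.4 to 5.07 CPM, Ltb from 236 to 107 CPM, Lsp1 from 180 to 90.8 CPM and the cytokine receptor Flt3 from 29.4 to 15.3 CPM. The list summed to 540 to 574 CPM in young and 271 to 325 CPM in old libraries, without overlap. In other lineages, Klrb1c of NK cells rose from 16.1 to 68.5 CPM (adjusted p = 7.13e-08) and Trac of T cells from 0.422 to 1.198 CPM (adjusted p = 0.00786), while Mpo of granulocyte precursors was lower (log2 fold change -3.25, adjusted p = 0.0470) with young libraries spread from 0.497 to 29.1 CPM, and Prtn3 of the same list rose from 127 to 309 CPM (adjusted p = 2.80e-15). Erythroid genes went both ways, with Klf1 and Car1 among the lower and Hbb-bs, Hba-a1 and Hba-a2 higher, as did megakaryocyte genes, with Ppbp lower and Itga2b and Vwf higher. Of 9 HSC genes, Slamf1 was higher.

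Variable segments of immunoglobulin genes were read as a count of segments at 1 CPM or more. Of 160 kappa segments, 1 to 4 passed in each young library and 0 to 1 in each old library, and of 183 heavy-chain segments 2 to 4 and 0 to 1. Summed kappa segments reached 12.6 to 472 CPM in young and 2.72 to 57.0 CPM in old libraries. In young library 4 a single segment, Igkv1-110, held 371 CPM or 78.6% of the kappa segments, and Ighv1-77 held 174 CPM or 75.5% of the heavy-chain segments. Igkv6-15 held 52.2 CPM (91.7%) in old library 2, and Igkv10-96 held 42.4 CPM (81.3%) in old library 7. These segments are near-identical copies within families, so how reads were split among them is uncertain.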
